A study of Mus musculus with 2 samples.

Results

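The receptors for serotonin, dopamine, noradrenaline and adrenaline, acetylcholine, histamine, adenosine, cannabinoids and opioids were examined in the hippocampus of 14-day-old female mice. The genes were chosen by symbol among protein-coding genes, which gave 63 members of 55536 annotated genes: 14 serotonin, 5 dopamine, 9 adrenergic, 5 muscarinic, 16 nicotinic, 4 histamine, 4 adenosine, 2 cannabinoid and 4 opioid receptor genes. The mice were B6CASTF1/J, the first-generation hybrid of C57BL/6J and CAST/EiJ, and no treatment is given in the labels. Total RNA was sequenced in 1 group of 2 libraries, biological replicates 1 and 2, each from 300 ng of RNA and each listing 3 females of its own. The labels name a layer of the hippocampus without saying which, and both libraries carry the same donor identifier. There is no second condition, so the results are levels and their spread over the libraries, with no test.

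Most of these receptors pass signals through G proteins. Receptors coupled to Gs raise cyclic AMP, those coupled to Gi or Go lower it and dampen calcium entry and transmitter release, and those coupled to Gq mobilise intracellular calcium. The nicotinic receptors and the serotonin receptor built from Htr3a and Htr3b are instead ion channels made of several subunits. In the hippocampus these receptors set the excitability of pyramidal cells and interneurons, while the serotonin, noradrenaline, dopamine, acetylcholine and histamine that reach them come from axons whose cell bodies lie mainly outside the hippocampus.

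Replicate 1 held 33465393 expected counts, of which the receptor genes took 45611; replicate 2 held 32879872, of which they took 40423. All 5 CA1, 5 CA3, 5 dentate granule cell, 10 interneuron, 7 astrocyte and 6 oligodendrocyte markers were detected in both libraries, as were 4 of 5 CA2 markers. Detection does not mark the tissue, since 10 of 10 striatum, 7 of 7 neocortex and 6 of 9 thalamus and habenula markers were detected too. Choroid plexus markers stood apart: their summed level was 1437 TPM in replicate 1 and 9.86 TPM in replicate 2, and 8 of 8 were lower in replicate 2. The 5 fibroblast and meningeal markers were also lower in replicate 2 (summed 168 and 107 TPM in replicates 1 and 2), and the 5 dentate granule cell markers higher (summed 86.7 and 108 TPM). In such bulk tissue, fewer cells of a type and less RNA per cell cannot be told apart.

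Levels are in TPM (transcripts per 1000000, a length-corrected share of all RNA counted), and a gene was called detected at 1 TPM or more in both libraries. By that measure 39 of the 63 receptor genes were detected, against 58.6% of 22015 nuclear protein-coding genes. Of these, 10 had a mean of 10 TPM or more and 29 lay below that. The median over all 63 members was 1.96 TPM (SD of the libraries' medians 0.304, n = 2), against 3.53 TPM over all nuclear protein-coding genes. Among detected genes it was 4.75 TPM, against 14.9 TPM. A few receptors carried most of the signal: Adora1, Cnr1 and Chrm1 together held 49.1% of the members' summed TPM, and the first 10 genes held 75.2%.

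**Figure D1:**
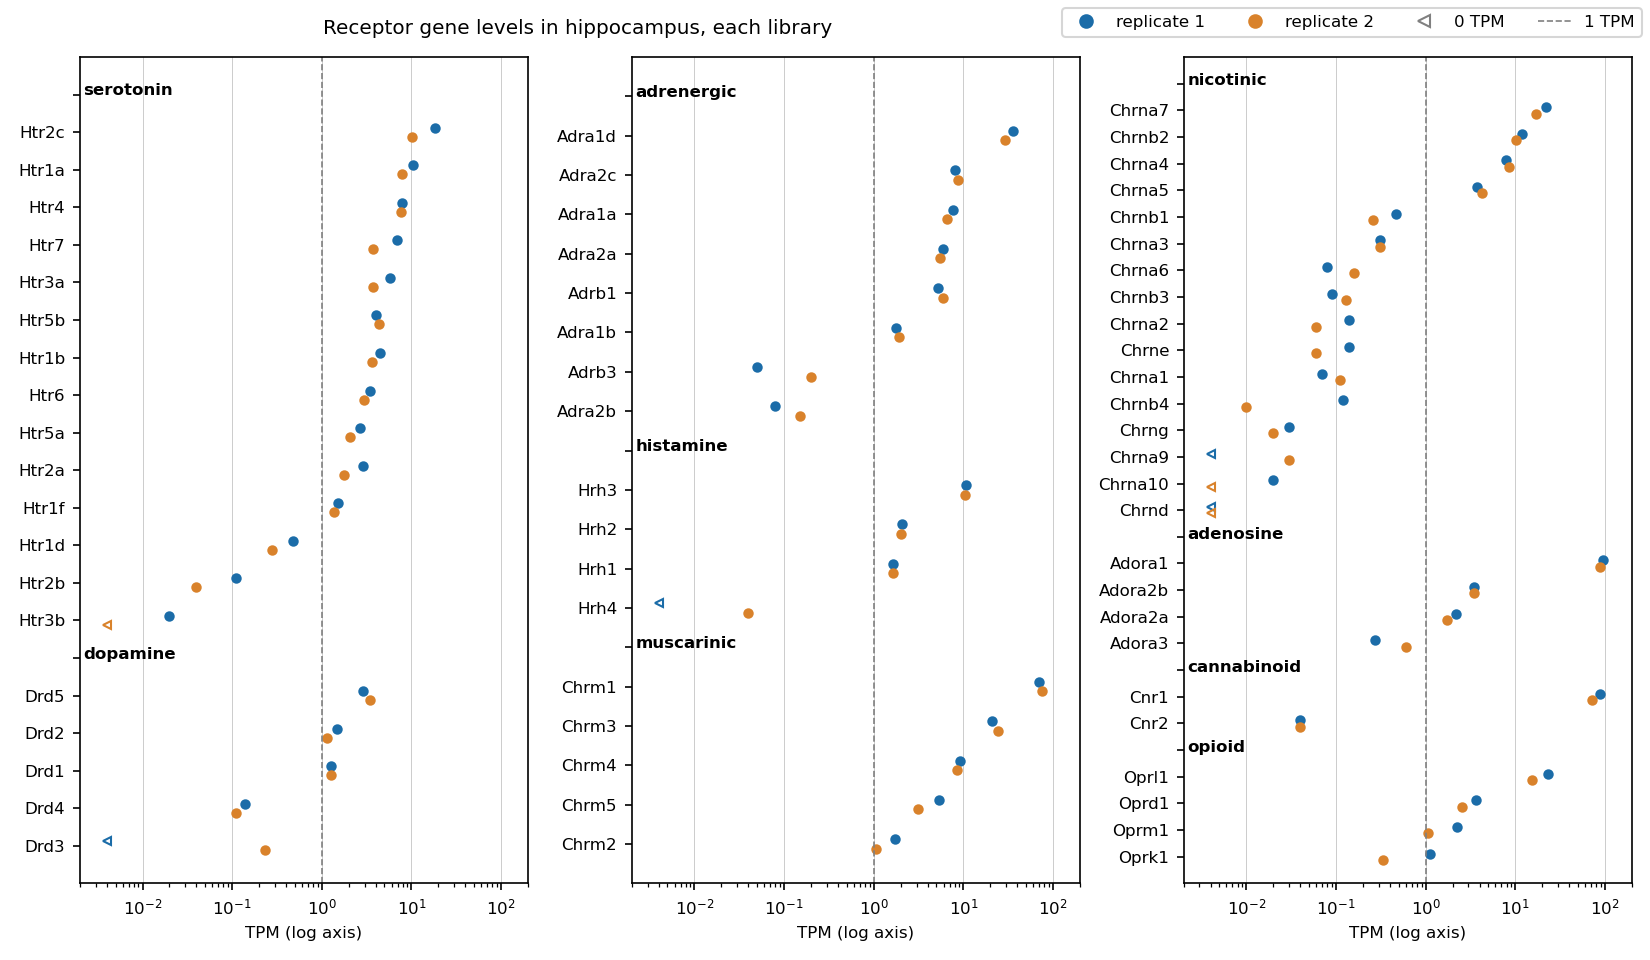
Level of receptor genes in replicate 1 (blue) and replicate 2 (orange), in TPM on a log axis, grouped by transmitter; open triangles mark 0 TPM and the dashed line 1 TPM. Adora1, Cnr1 and Chrm1 lie furthest to the right, between 70.39 and 94.5 TPM, while 12 of 16 nicotinic subunit genes lie left of the line.

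The adenosine receptor gene Adora1 had the highest mean level, 94.5 TPM in replicate 1 and 88.76 TPM in replicate 2 (91.6 ± 4.06, SD, n = 2). Adora1 encodes the inhibitory receptor that lowers glutamate release at hippocampal synapses and is blocked by caffeine. It lies on chromosome 1 (134199223 to 134235431, mm10) and stood above 95.7% of nuclear protein-coding genes. The other adenosine receptors were far lower. Adora2b, the low-affinity receptor coupled to Gs, had 3.46 and 3.43 TPM in replicates 1 and 2. Adora2a, the Gs-coupled receptor best known from the striatum, had 2.20 and 1.72 TPM. Adora1 thus exceeded Adora2a by a TPM ratio of 42.95 in replicate 1 and 51.6 in replicate 2 (47.3 ± 6.12, SD, n = 2). Adora3 was not detected, at 0.27 and 0.61 TPM from 13 and 20 counts, and 779 of its exonic bases are shared with Tmigd3 on the same strand.

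Cnr1, the cannabinoid receptor of axon terminals, came next. It had 87.27 TPM in replicate 1 and 71.86 TPM in replicate 2, from 10095 and 8151 counts. Cnr1 in the hippocampus is known mainly from cholecystokinin interneurons, and at lower levels from glutamatergic terminals. Cnr2, the cannabinoid receptor of immune cells, was at 0.04 TPM in each library, from 3 counts each. The ratio of Cnr1 to Cnr2 was 2182 in replicate 1 (95% counting interval 746 to 10581) and 1797 in replicate 2 (615 to 8713), intervals whose width reflects those 3 counts.

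Cnr1 has a single coding exon, and its transcripts differ in their first exon. Cnr1-201, which starts at 33924632 on chromosome 4, had 69.86 TPM in replicate 1 and 55.31 TPM in replicate 2. Cnr1-202, which starts 1570 bases further on at 33926202, had 6.23 and 6.37 TPM. Cnr1-203, a processed transcript that starts 39 bases before Cnr1-201 and shares the end of its first exon, had 11.19 and 10.17 TPM, 12.8% and 14.2% of the gene, and 15.3% and 20.1% in the second of the authors' quantifications. The coding form Cnr1-201 exceeded Cnr1-202 by a ratio of 11.2 in replicate 1 and 8.68 in replicate 2, and by 6.68 and 5.35 in the second quantification. The sequences upstream of the starts are shown because those of Cnr1-203 and Cnr1-201 lie in CG-rich sequence and that of Cnr1-202 does not. They run 5′ to 3′ on the plus strand, from the RefSeq promoter table on GRCm38.p6, with each CG in capitals. The first ends just before the start of Cnr1-203 and so 39 bases short of that of Cnr1-201.
Cnr1-203 and Cnr1-201, chr4:33924394-33924592: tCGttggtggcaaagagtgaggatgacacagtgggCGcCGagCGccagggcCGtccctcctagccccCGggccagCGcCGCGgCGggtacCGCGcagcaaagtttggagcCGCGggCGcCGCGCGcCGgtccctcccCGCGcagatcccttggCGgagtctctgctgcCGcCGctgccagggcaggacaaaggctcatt
Cnr1-202, chr4:33926130-33926201: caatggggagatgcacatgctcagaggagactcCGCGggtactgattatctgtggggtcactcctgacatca
Over the 300-base RefSeq windows that hold these pieces, the Cnr1-201 window had 33 CG pairs and an observed over expected CG ratio of 0.93, above 85.5% of 20150 promoters of protein-coding genes. The Cnr1-202 window had 5 CG pairs and a ratio of 0.313, above 31.6% of them. Another RefSeq window for Cnr1, further upstream, chr4:33924014-33924313, had 40 CG pairs and a ratio of 0.928. The RefSeq and GENCODE starts lie 12 bases apart for Cnr1-201 and 178 bases apart for Cnr1-202.

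The muscarinic receptors, which bind acetylcholine, were the family with the highest summed level, 107 TPM in replicate 1 and 113 TPM in replicate 2, and all 5 were detected. Chrm1, the Gq-coupled receptor of pyramidal cells, led with 70.39 and 76 TPM. It lay below Cnr1 in replicate 1 and above it in replicate 2, so the order of those genes differed between the libraries. Chrm3, also coupled to Gq, had 20.69 and 24.33 TPM. Chrm4, a Gi-coupled receptor, had 9.19 and 8.40 TPM, and Chrm5, a Gq-coupled receptor known from dopamine neurons, 5.39 and 3.14 TPM. Chrm2, the Gi-coupled autoreceptor of cholinergic terminals, was lowest at 1.73 and 1.05 TPM. Chrm1 exceeded Chrm2 by a TPM ratio of 40.7 in replicate 1 and 72.4 in replicate 2 (56.5 ± 22.4, SD, n = 2), a ratio whose spread came mostly from Chrm2.

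Of the 16 nicotinic subunit genes only 4 were detected, and these were subunits of the receptors known from brain. Chrna7, which forms the homomeric receptor of hippocampal interneurons, had 22.22 TPM in replicate 1 and 16.85 TPM in replicate 2. Chrnb2 and Chrna4, the subunits of the high-affinity nicotine receptor, followed. Chrnb2 had 11.92 and 10.27 TPM, and Chrna4 7.77 and 8.58 TPM. Chrna5, an accessory subunit of that receptor, had 3.72 and 4.23 TPM. Per length, Chrna4 was below Chrna7 in both libraries, with TPM ratios of 0.35 and 0.509 (0.429 ± 0.113, SD, n = 2). Chrnb2 overlaps Adar on the opposite strand by 1365 exonic bases, and Adar had 3788 and 3297 counts beside 1702 and 1460 for Chrnb2. The sources used here do not say whether the authors' counting used strand, so the level of Chrnb2 is uncertain.

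The other 12 nicotinic genes lay between 0 and 0.47 TPM. They comprised the 5 muscle subunit genes Chrna1, Chrnb1, Chrnd, Chrne and Chrng, with a summed level of 0.71 TPM in replicate 1 and 0.45 TPM in replicate 2, and Chrna2, Chrna3, Chrna6, Chrna9, Chrna10, Chrnb3 and Chrnb4. Chrnd had 0 counts in both libraries in the first quantification. At a limit of 3 counts this allows a level there of up to 0.0644 TPM (replicate 1) or 0.0647 TPM (replicate 2). The second quantification gave Chrnd 5.01 and 6.00 counts, or 0.109 and 0.132 TPM, so that limit holds for the first only. Chrnb4, the partner of Chrna3 in ganglia and the habenula, had 10 and 1 counts. The ratio of Chrnb2 to Chrnb4 was therefore loosely measured, at 99.3 in replicate 1 (counting interval 53.9 to 208) and 1027 in replicate 2 (184 to 40592). Chrna5, Chrna3 and Chrnb4 lie in a row on chromosome 9, with gaps of 2331 and 1591 bases between neighbours, yet Chrna5 was detected and Chrna3 was at 0.31 TPM in each library.

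Among the adrenergic receptors Adra1d stood first, at 35.56 TPM in replicate 1 and 29.27 TPM in replicate 2, and it alone held 52.2% of the family's summed level. Adra1d is a Gq-coupled receptor that is prominent in the hippocampus of rodents. The other Gq-coupled members were lower: Adra1a had 7.68 and 6.53 TPM. Adra1b had 1.76 and 1.90 TPM. Of the Gi-coupled receptors, which include the autoreceptors of noradrenergic axons, Adra2c had 8.15 and 8.77 TPM. Adra2a had 5.92 and 5.49 TPM, and its ratio to Adra1a was 0.771 and 0.841 (0.806 ± 0.0494, SD, n = 2). Adra2b was not detected, at 0.08 and 0.15 TPM. Adrb1, the Gs-coupled receptor of the heart and of forebrain neurons, was detected at 5.27 and 5.86 TPM. Adrb3, the receptor of fat cells, had 0.05 and 0.20 TPM.

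Of the 14 serotonin receptor genes 11 were detected, with no member above 18.1 TPM. Htr2c, the Gq-coupled receptor described further below, had 18.1 TPM in replicate 1 and 10.1 TPM in replicate 2. Htr1a, the Gi-coupled receptor that hyperpolarises pyramidal cells, had 10.4 and 7.88 TPM. These genes led the family in both libraries. The Gs-coupled members came in the order Htr4, Htr7, Htr6 in both libraries. Htr4 had 7.83 and 7.67 TPM. Htr7 had 6.90 and 3.72 TPM. Htr6, a receptor found almost only in brain, had 3.41 and 2.92 TPM. Htr3a, the channel subunit that marks a class of interneurons, had 5.80 and 3.69 TPM, while Htr3b, which joins it in some receptors, had 1 count and 0 counts. The pair lies on chromosome 9 with 23908 bases between the genes.

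The remaining Gi-coupled serotonin receptors were all low. Htr5b, which is expressed in rodents and is a pseudogene in humans, had 4.07 and 4.29 TPM. Htr1b, the receptor of axon terminals, had 4.41 and 3.63 TPM. Its neighbour on the other strand, D430036J16Rik, shares 852 exonic bases with it and had 56 and 60 counts, beside 362 and 315 for Htr1b. Htr5a had 2.68 and 2.08 TPM. Htr1f had 1.53 and 1.37 TPM. Htr2a, the Gq-coupled receptor of hallucinogens, had 2.86 and 1.77 TPM, so that Htr1a exceeded it by a ratio of 3.64 and 4.45 (4.04 ± 0.577, SD, n = 2). Htr1d and Htr2b were not detected, at 0.04 to 0.48 TPM over both libraries.

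Dopamine receptors were the lowest family by summed level, 5.80 TPM in replicate 1 and 6.13 TPM in replicate 2. Drd5, a Gs-coupled receptor known from hippocampal pyramidal cells, had 2.91 and 3.41 TPM. It shares 1531 exonic bases with the antisense gene Gm26560, which had 5 and 8 counts, beside 203 and 237 for Drd5. Drd2, a Gi-coupled receptor, had 1.48 and 1.13 TPM. Drd1, a Gs-coupled receptor abundant in striatum, had 1.27 and 1.25 TPM, and its ratio to Drd2 was 0.858 and 1.11 (0.982 ± 0.175, SD, n = 2). Both libraries' counting intervals for that ratio included 1. Drd3 and Drd4 were not detected, with 0 and 7 counts and 7 and 7 counts.

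Histamine receptors were led by Hrh3, the Gi-coupled autoreceptor and terminal receptor, with 10.78 TPM in replicate 1 and 10.49 TPM in replicate 2. Hrh2, which couples to Gs, had 2.07 and 2.00 TPM. Hrh1, the Gq-coupled target of sedating antihistamines, had 1.62 and 1.63 TPM. For each of these 3 genes the counting interval of the replicate ratio included 1. Hrh4, a receptor of blood cells, had 0 and 1 counts.

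The opioid family was led by Oprl1, the receptor for nociceptin and the member least sensitive to classical opioids, with 22.97 TPM in replicate 1 and 15.32 TPM in replicate 2. Oprd1, the delta receptor, had 3.67 and 2.55 TPM. Oprm1, the mu receptor through which morphine acts, had 2.23 and 1.06 TPM. Oprk1, the kappa receptor for dynorphin, had 1.12 and 0.33 TPM and was the only member above 1 TPM in a single library. All 4 were lower in replicate 2, and all 4 couple to Gi or Go.

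Grouped by coupling, the 24 Gi- and Go-coupled receptors held 51.2% of the members' summed TPM. Their summed level was 273 TPM in replicate 1 and 236 TPM in replicate 2, with 16 of 24 detected. Adora1 alone made up 36.0% of that class. Its median per gene was 2.01 TPM, against 5.685 TPM for Gq-coupled, 3.16 TPM for Gs-coupled and 0.105 TPM for channel subunit genes. The 10 Gq-coupled genes summed to 164 and 155 TPM with 9 detected. The 18 channel subunit genes summed to 52.9 and 44.8 TPM with 5 detected. The 11 Gs-coupled genes summed to 36.1 and 33.1 TPM with 9 detected, so the 9 detected Gs-coupled genes carried a smaller total than the 5 detected channel subunits. The G protein alpha subunits themselves were all detected, 9 of 9. Gnas, which encodes the Gs subunit, had 855.56 and 742.1 TPM. Gnao1, which encodes the Go subunit, had 352.51 and 345.18 TPM. Gnaq, which encodes the Gq subunit, had 89.58 and 88.48 TPM. All 7 receptor kinases and arrestins, which end receptor signalling, were detected, led by Grk2 with 63.56 and 66.03 TPM.

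On the ligand side, none of 9 markers of monoaminergic, histaminergic and cholinergic cell bodies was detected in both libraries of the first quantification. The highest was Hdc, the histaminergic marker, with 1.18 TPM in replicate 1 and 0.64 TPM in replicate 2. In the second quantification Hdc had 2.28 and 1.19 TPM, above the limit in both libraries. There Tph2 in replicate 1 (1.10 TPM) and Th in replicate 2 (1.38 TPM) also passed 1 TPM. Chat, the enzyme of acetylcholine synthesis, had 0 counts in both libraries, and Slc18a3, its vesicular transporter, had 0 and 4. Slc6a4, the serotonin transporter, had 4 and 1 counts. Tph2, the enzyme of neuronal serotonin synthesis, had 41 and 23 counts, and Th, the enzyme of catecholamine synthesis, 6 and 13. Other genes of monoamine cells, which are not on that list, were detected. Ddc, the decarboxylase of serotonin and catecholamine synthesis, had 6.51 and 5.54 TPM. Slc18a2, the vesicular monoamine transporter, had 2.02 and 1.43 TPM. Enzymes that break the transmitters down were detected in the same libraries, at unlike levels. Ache, which splits acetylcholine, had 37.16 and 32.78 TPM. Other such enzymes were lower: Hnmt had 10.98 and 10.79 TPM, and Maoa 9.91 and 9.59 TPM. Maob had 4.80 and 5.92 TPM, and Bche 3.46 and 3.17 TPM. Slc29a4, a low-affinity monoamine transporter, had 36.17 and 28.07 TPM. Over the whole lists, 6 of 16 monoamine genes, 2 of 5 acetylcholine genes and 1 of 2 histamine genes were detected.

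Endocannabinoid and adenosine genes, in contrast, were mostly detected. All 8 endocannabinoid genes were detected, with a median of 57.3 TPM. They included Dagla, which makes the endocannabinoid 2-arachidonoylglycerol, at 56.94 and 63.17 TPM, and Mgll, which degrades it, at 80.54 and 87.01 TPM. Of 9 adenosine genes 8 were detected, led by adenosine kinase, Adk, at 30.26 and 32.73 TPM. Of 4 opioid peptide genes 3 were detected: Penk, the enkephalin precursor, had 10.17 and 8.52 TPM. Pnoc, which encodes the ligand of Oprl1, had 5.88 and 4.45 TPM. Pdyn, the dynorphin precursor, had 3.25 and 3.87 TPM. Of 10 genes for proteins that assemble or modulate nicotinic receptors 8 were detected, led by Ly6h at 203.16 and 164.5 TPM and Lynx1 at 138.43 and 127.85 TPM. Rapsn, which clusters the muscle receptor, had 4 counts in each library.

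**Figure D2:**
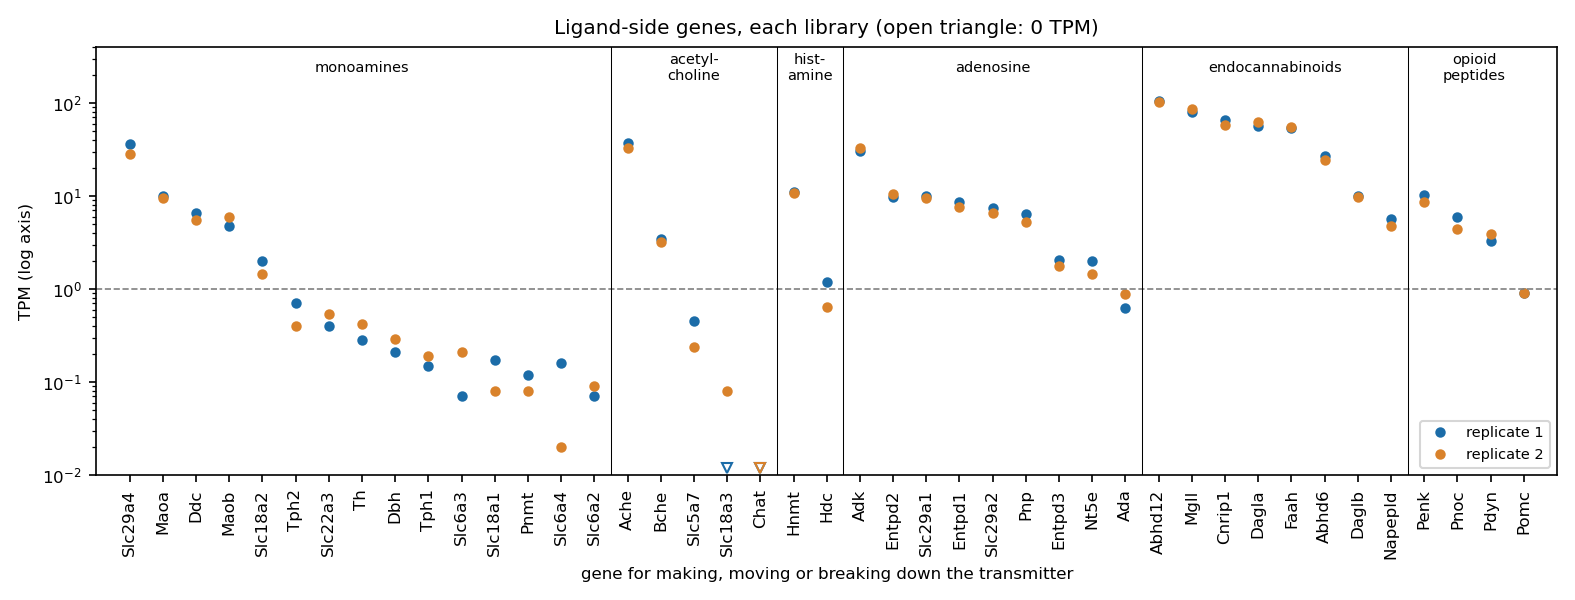
Level of listed genes that make, move or break down the ligands, in replicate 1 (blue) and replicate 2 (orange), in TPM on a log axis, with 1 TPM dashed. The endocannabinoid genes all lie above the line, whereas Chat is at 0 in both libraries.

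The libraries were compared by the ratio of replicate 2 to replicate 1 in scaled counts, for the 42 receptor genes with at least 50 counts in sum. With 1 library on each side this has no replicate check, and the intervals cover counting error only. Of these genes 26 were lower in replicate 2, against 48.2% of 13813 protein-coding genes at that depth. For 17 the 95% counting interval lay below 1, against 17.2% of protein-coding genes, and for 7 it lay above 1, against 21.8%. The median log2 ratio was -0.08 for the receptor genes and 0.01 for all. The median size of the log2 ratio, whatever its sign, was 0.26 for the receptor genes. The median half-width of their 95% counting intervals was 0.248. Over all protein-coding genes these values were 0.12 and 0.156. A 95% half-width is wider than the typical counting error of a gene, so size and half-width are not like measures. Between 278 and 1478 summed counts, the central part of the receptor genes' depth and a band chosen after seeing the data, the median size was 0.28 for 20 receptor genes and 0.14 for 4829 protein-coding genes, with half-widths of 0.248 and 0.213. The difference in size was not tested.

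By family, 10 of 11 serotonin, 4 of 4 opioid, 1 of 1 cannabinoid, 3 of 5 muscarinic, 3 of 7 adrenergic and 2 of 5 nicotinic receptor genes were lower in replicate 2, as was 1 of 3 dopamine, 1 of 3 histamine and 1 of 3 adenosine receptor genes; the share over protein-coding genes is the 48.2% given above. The counting interval lay below 1 for 7 of 11 serotonin and 4 of 4 opioid receptor genes, against 17.2% of protein-coding genes. Differences between families were not tested. Only Oprk1 was over 2-fold apart, against 1.29% of protein-coding genes. It had 89 counts in replicate 1 and 26 in replicate 2, a log2 ratio of -1.65 (counting interval -2.35 to -1.02). Beyond the central 95% of protein-coding genes, which ran from -0.67 to 0.46, also lay Htr2c at -0.92 (-1.04 to -0.81), Oprm1 at -0.77 (-1.28 to -0.29) and Chrm5 at -0.68 (-1.04 to -0.33). The intervals of Oprm1 and Chrm5 reached into that range, and no receptor gene lay above it. With Oprk1, 4 of the 42 receptor genes lay outside a range that by definition holds 95% of protein-coding genes. Of those with an interval above 1, Drd5 had 0.33 (0.06 to 0.61), Adrb1 0.31 (0.10 to 0.53), Chrm1 0.23 (0.19 to 0.28) and Chrm3 0.21 (0.11 to 0.30). Beside these values stand the choroid plexus, fibroblast and dentate granule cell lists given above, with median log2 ratios of -4.88, -0.52 and 0.59. Other marker lists moved less. Interneuron markers were lower in replicate 2 for 7 of 10 genes (median -0.12) and CA3 markers for 4 of 5 (median -0.09). The median log2 ratio over all protein-coding genes was 0.01. CA1 markers were lower for 1 of 5 (median 0.25), neocortex markers for 1 of 7 (0.20) and astrocyte markers for 1 of 7 (0.24). For CA2 markers it was 3 of 5 (-0.05), and for pericyte and smooth muscle markers 4 of 5 (-0.02). For microglia markers it was 2 of 6 (0.20), and for oligodendrocyte markers 0 of 6 (0.10). None of the 8 choroid plexus markers was at 0 in replicate 2, where they had 3 to 152 counts. Their part in the receptor ratios was not tested.

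**Figure D3:**
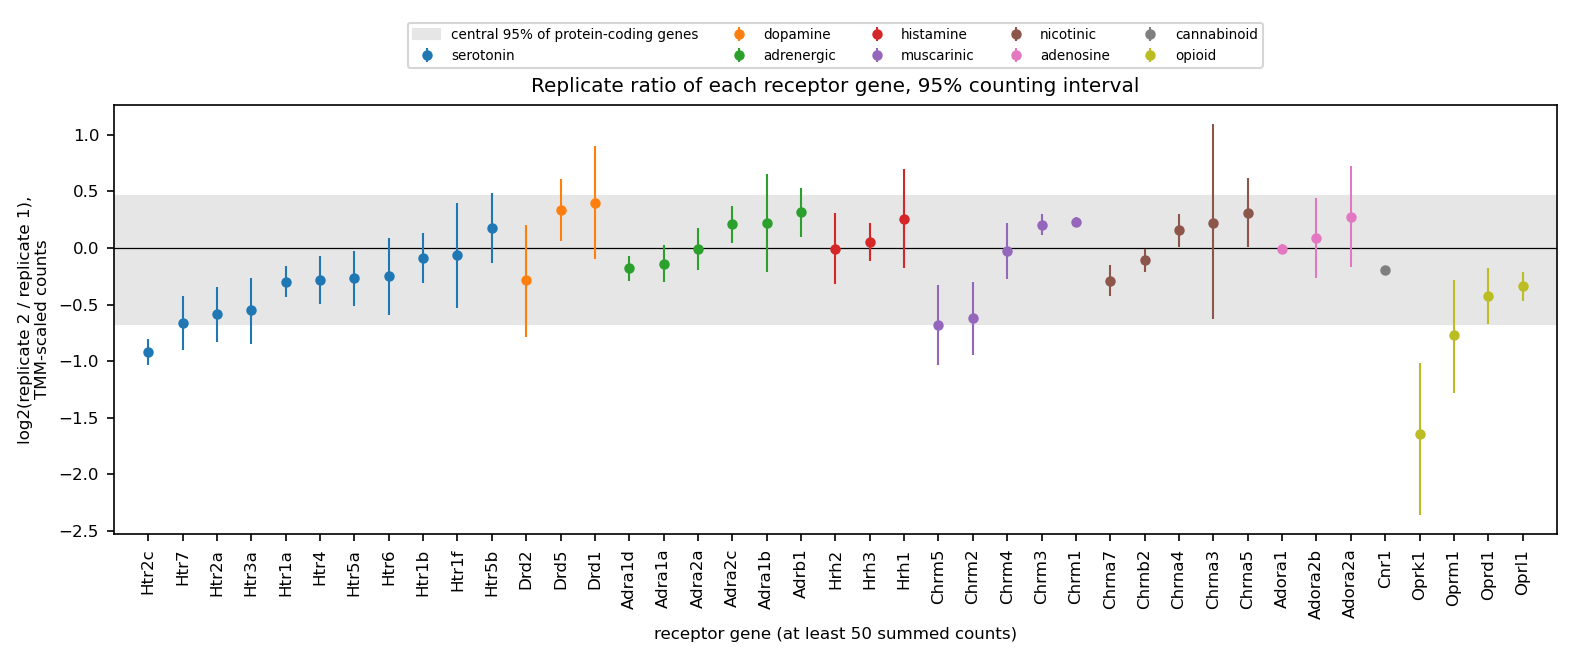
Log2 ratio of replicate 2 to replicate 1 for receptor genes with at least 50 summed counts, coloured by family, with 95% counting intervals as bars; the grey band holds the central 95% of protein-coding genes. Oprk1 lies lowest at -1.65, and 10 of 11 serotonin receptor genes lie below 0.

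For Htr2c the difference between the libraries lay mostly in a full-length messenger. This receptor gene on chromosome X (146962513 to 147197277) gives, among others, a full-length transcript, Htr2c-201, of 459 codons, and a shortened transcript, Htr2c-207, of 172 codons. Htr2c-207 is known to encode a truncated protein without receptor function. The exons of these transcripts differ by 95 coding bases at the end of exon 5, at chrX:147169676-147169770, apart from 1 base at the start and 3 bases at the end of the transcript. Both forms of the junction are shown because the counts of these transcripts are told apart there, 5′ to 3′ on the plus strand of mm10 from the GENCODE M21 transcripts. The capitals mark the 95 bases that Htr2c-201 keeps and Htr2c-207 lacks, between the 30 bases before and the 30 bases after.
Htr2c-201: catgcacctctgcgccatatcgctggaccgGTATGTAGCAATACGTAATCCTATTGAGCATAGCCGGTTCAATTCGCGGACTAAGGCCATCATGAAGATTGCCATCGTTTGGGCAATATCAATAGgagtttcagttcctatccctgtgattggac
Htr2c-207: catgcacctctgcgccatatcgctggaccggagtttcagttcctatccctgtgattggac
The capital stretch opens with the letters GT, the usual start of an intron, and its length leaves 2 bases over after division by 3, so its loss shifts the reading frame. As background, the adenosines of this messenger that are edited to inosine lie in this stretch; editing was not analysed here.

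Htr2c-201 had 1110 counts in replicate 1 and 250 in replicate 2, a level of 10.4 and 2.37 TPM. Htr2c-207 had 625 and 604 counts, a level of 6.00 and 5.83 TPM. The full-length form thus led in replicate 1, with 57.7% of the gene's TPM against 33.1% for the shortened form, and the shortened form led in replicate 2, with 57.7% against 23.4%. In scaled counts Htr2c-201 was 4.11-fold higher in replicate 1 than in replicate 2 (counting interval 3.58 to 4.74), while for Htr2c-207 the ratio of replicate 2 to replicate 1 was 1.04 (0.932 to 1.17). Of the 942 counts by which the gene differed between the libraries, 91.3% were those of Htr2c-201. Htr2c-206, which retains an intron near the start of the gene, moved with the full-length form, with 96.1 and 19.7 counts. The second quantification gave the same pattern, with 14.3 and 3.00 TPM for Htr2c-201 and 6.29 and 7.62 TPM for Htr2c-207. There the ratio of replicate 2 to replicate 1 for Htr2c-207 was 1.29 (1.15 to 1.46). Htr2c-202, a further coding transcript that holds the 95 bases, had 0 counts in the first quantification and 172 and 77.9 in the second.

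Choroid plexus epithelium is known as the site of highest Htr2c expression in the brain. Its defining marker Ttr had 34185 counts in replicate 1 and 139 in replicate 2, Folr1 had 235 and 5, and Kcnj13 had 169 and 3. All 8 listed markers were lower in replicate 2 and none was at 0 in either library. Their part in the Htr2c difference was not tested. Without Htr2c the median log2 ratio of the receptor genes was -0.07.

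**Figure D4:**
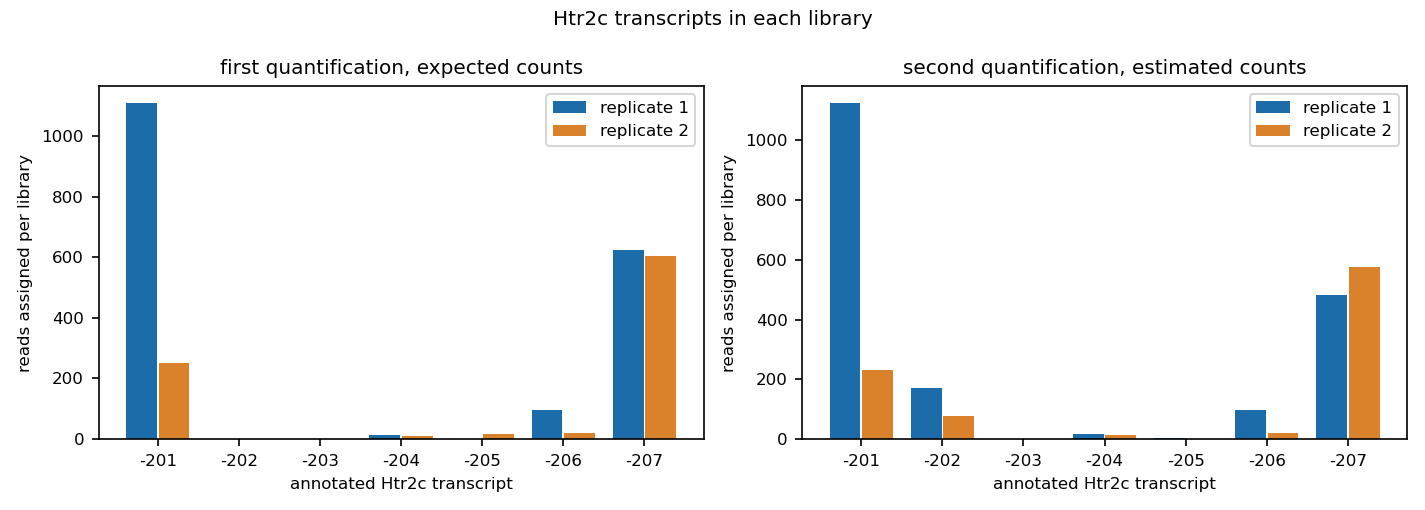
Reads assigned to each annotated Htr2c transcript in replicate 1 (blue bars) and replicate 2 (orange bars), by the first quantification on the left and the second on the right. In both panels Htr2c-201 is high only in replicate 1, at 1110 counts by the first quantification. Htr2c-207 has 625 and 604 counts in replicates 1 and 2 by the first quantification, and 484 and 578 by the second.

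Isoforms were compared for the 26 detected members with over 1 annotated transcript; the other 13 have a single transcript. The leading isoform was the same in both libraries for 22 genes, and the same in both libraries and both quantifications for 18. Only 4 genes had a leader with at least 80% of the gene in all 4 estimates. For these 8 genes the leader was not constant: Adora1, Adra1a, Chrna5, Drd1, Hrh1, Htr2c, Htr4 and Htr7. Adora1 was led by Adora1-203 in the first quantification, with 42.0% in replicate 1 and 44.2% in replicate 2, and by Adora1-202 in the second, with 42.4% and 42.6%. Adra1a was led by Adra1a-202 in replicate 1, with 38.9%, and by Adra1a-203 in replicate 2, with 48.9%. In the second quantification Adra1a-203 led in both. Chrna5-204 and Chrna5-202 shared the gene almost evenly, with 51.0% and 49.0% in replicate 1 and 54.9% and 45.1% in replicate 2.

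For several of these genes the assignment moved between libraries or quantifications. Drd1-202 had 60.5 counts in replicate 1 and 0 in replicate 2, while Drd1-201 had 0 and 76.1. Hrh1-203 led in the first quantification, with 52.0% and 85.1%, but had 0% and 16.1% in the second. Htr4-204 held 51.6% and 65.5% in the first quantification and 21.7% and 36.9% in the second. Htr7 was split over several splice forms: Htr7-202 had 30.95% and 32.9%, and Htr7-204, annotated as a target of nonsense-mediated decay, had 19.0% and 44.4%. The shares of these genes are therefore uncertain, whereas those of Htr2c-201 and Htr2c-207 moved the same way in both quantifications.

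Annotated decay targets also took part of Oprl1 and Hrh2. Hrh2-203 held 76.5% of Hrh2 in replicate 1 and 65.2% in replicate 2, and 47.8% and 63.0% in the second quantification. Oprl1-201, the leading coding form of 367 codons, held 36.0% and 33.4%, and 56.7% and 42.2% in the second quantification. Oprl1-209 held 12.5% and 24.7%, and 13.4% and 20.9% in the second quantification. It carries an extra exon 3 of 139 bases (chr2:181717955-181718093, mm10, plus strand) that ends its reading frame after 95 codons. The coding part of that exon is shown with its stop codon in capitals, since this exon sets the form apart.
Oprl1-209, chr2:181717955-181718018: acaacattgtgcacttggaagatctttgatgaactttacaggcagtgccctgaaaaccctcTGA

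The authors' quantifications were close for the detected receptor genes. After rescaling to nuclear protein-coding genes, none of the 39 was over 2-fold apart in either library. The median log2 ratio of the second to the first was -0.16 in replicate 1 and -0.15 in replicate 2, and single values ran from -0.85 to 0.27. Drd1 was the gene at the low end, with -0.85 and -0.51. Chrna2, Chrnb3 and Chrnd, none of them detected, were over 2-fold apart in both libraries. For 5 of the 42 genes with enough counts, the TPM ratio and the scaled count ratio of the libraries differed in sign. Adora2a was among them, with 2.20 and 1.72 TPM but 82 and 92 counts, as was Drd1, with 64 and 78 counts.

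**Figure D5:**
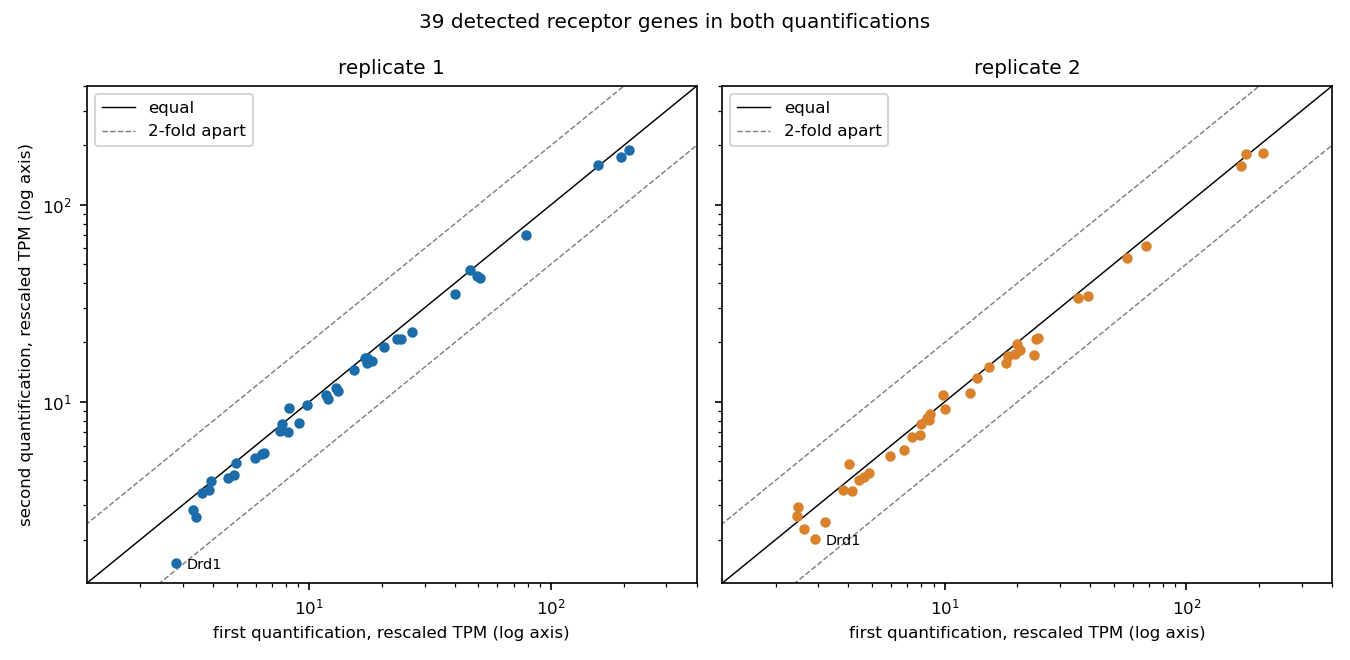
Level of the 39 detected receptor genes by the second quantification against the first, in TPM rescaled over nuclear protein-coding genes, on log axes, for replicate 1 (left) and replicate 2 (right). The solid line marks equal values and the dashed lines 2-fold differences; all 39 points lie between the dashed lines, with Drd1 nearest to the lower line.

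Features the choice of genes did not use were also described. Of the 45 G protein-coupled receptor genes 19 have a single coding exon, while the 18 channel subunit genes have 5 to 12. Over all members the share with a single coding exon was 30.2%, against 16.3% of 22028 protein-coding genes. Of these 19 genes 15 were detected, and of the other 44 members 24, against 58.6% of nuclear protein-coding genes of any exon number. Those 44 include the 18 channel subunit genes, of which 5 were detected, so this split does not separate exon number from receptor type. The median gene span was 17910 bases, against 17318 bases. Words of 31 bases were compared with other annotated genes on either strand, so exonic overlap with an antisense gene counts as shared. Drd5 shared 48.1% of its words, the highest share among the members, and Gm26560 overlaps 48.6% of its exonic bases. Over 10% was shared by 8 members, among them Adora1 (18.6%) and Chrnb2 (15.0%). Their antisense neighbours Mybph and Adar overlap 20.1% and 16.3% of their exonic bases. The overlap of Adora1 with Mybph spans 1162 exonic bases, and Mybph had 3 and 4 counts. For 25 members no word was shared.

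RefSeq promoter windows, 250 bases before to 50 after a start, were found for 48 of the 63 genes, 65 windows in all. The 32 detected genes with a window had a median CG ratio of 0.74 in their most CG-rich window, against 0.305 for the 16 genes that were not detected. A ratio of 0.6 or more was held by 21 of the 32 and by 3 of the 16. The same split ran through protein-coding genes as a whole: the median was 0.794 for 10049 detected genes, of which 77.5% held 0.6 or more, and 0.213 for 6473 genes that were not detected, of which 13.8% did. Over single windows the median ratio was 0.498 for the members and 0.588 for protein-coding genes. The motif TATAAA, on either strand, was in 3 of 65 windows (4.62%), against 12.1% of 20150 windows of protein-coding genes; they belong to Oprl1, Adra2a and Chrnb1. The cyclic AMP response element TGACGTCA, which is its own reverse complement, was in 0 of 65 windows, against 2.31%. These are matches of letters in the windows and show no binding.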

How the data were processed

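Total RNA was sequenced from 1 group of 2 hippocampal libraries with ERCC spike-ins. A first quantification was deposited as tables in RSEM layout, which give expected counts, TPM and, per transcript, the percent of the gene's TPM, per the file headers. The deposited second table, in kallisto layout, gives estimated counts and TPM. Both use mm10 and GENCODE M21 per the file headers and notes; the sources used here state neither tool versions nor the use of strand. The authors' TPM includes the spike-ins.

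From these, levels were given as mean ± SD (n = 2). Replicate ratios used expected counts rounded to whole numbers, TMM factors (edgeR 4.0.16, R 4.3.3), a prior count of 0.5 and exact Clopper-Pearson intervals at 95%. On simulated counts for 16144 genes, 95.4% of the intervals held the true ratio. Those counts were drawn with counting error only, so this checks the computation and not variation between libraries. Spike-ins and unnamed entries, 0.43% of counts in replicate 1 and 0.423% in replicate 2, stayed out. DESeq2 1.42.0 size factors were an alternative. TPM of both quantifications was rescaled over nuclear protein-coding genes before they were compared, an addition made after seeing the data. Intervals and floors (3 counts) cover counting error only. Every detected member is named; the values of some other genes are not reported here, in text or figures, though counts over the lists include them; the first 10 by mean TPM, family leaders, members over 2-fold apart and genes whose leading isoform differed are described further. Members and lists were chosen with earlier results of these data known. Python 3.11.15 with numpy 2.4.6, pandas 2.3.3, scipy 1.17.1 and matplotlib 3.10.9 was used. Sequences came from GENCODE M21 transcripts and the RefSeq promoter table (GRCm38.p6). Protein sequences and alleles of the hybrid were not analysed here.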

Additional observations from a re-analysis of the deposited data

How the results depend on the processing

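The number of receptor genes detected was 39, and 39 to 44 under 3 other limits or quantifications and with either library alone. The median level was 1.96 TPM; it was 2.99 TPM in the second quantification, 4.45 after rescaling to nuclear protein-coding genes and 4.75 over detected genes only, and 1.77 to 2.20 with a single library. The count over 2-fold apart was 1 under DESeq2, ERCC and second-quantification scaling, 10 with no limit on counts and 0 on log2(TPM + 1). The number lower in replicate 2 was 26 to 30 of the genes with enough counts, and 34 of 63 with no limit; the median log2 ratio stayed between -0.14 and -0.01, and ERCC scaling moved all ratios by -0.06. None of the 24 genes whose interval left out 1 changed direction under the 4 other scalings or quantifications. The Htr2c-207 log2 ratio was 0.06, and 0.37 in the second quantification. Ratios of receptors that moved by more than their SD were, in the second quantification, Adora1 to Adora2a (41.1), Cnr1 to Cnr2 (581), Drd1 to Drd2 (0.717) and Adra2a to Adra1a (0.71). With counts not divided by length they were 101 for Adora1 to Adora2a, 3041 for Cnr1 to Cnr2, 3.22 for Htr1a to Htr2a, 0.733 for Adra2a to Adra1a and 0.879 for Chrna4 to Chrna7. By definition such a count ratio is the TPM ratio times the ratio of effective lengths, the lengths that TPM divides by. Why the ratios moved in the second quantification was not tested. Leading isoforms agreed between libraries for 22 genes, and for 20 in the second quantification. No ratio between libraries can be had with a library left out. No paired analysis was possible because there is 1 group. Depth limits the 8 genes with 3 counts or fewer in each library.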
